A study of Mus musculus with 16 samples.

Results

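The YAP mechanosensing genes described here are 8 genes: the transcriptional coactivator Yap1, its DNA-binding partner Tead1, the target genes Ctgf, Cyr61, Ankrd1 and Axl, and the targets Amotl2 and Lats2, whose products restrain YAP. They were taken by name, by a rule that uses no measured value, as every non-control probe carrying one of these gene names. The list of 8 genes was itself chosen with earlier results of these data known. All 8 were on the array, on 11 of its 55681 non-control probes (3 for Tead1, 2 for Lats2 and 1 for each of the others), and they form 8 of the 22652 genes detected. Each of the 11 probes was well above background on all 16 arrays. The newer symbols of Ctgf and Cyr61 are Ccn2 and Ccn1.

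Primary fibroblasts from mouse lung, used after at least 3 passages, were transfected with an siRNA, and their total RNA was taken 48 hours later. The groups were siLox (siRNA against Lox), siLoxl1 (against Loxl1), siLoxl2 (against Loxl2) and scr (a scrambled control siRNA), with 4 one-colour arrays each. The 3 targets are lysyl oxidases, secreted enzymes that cross-link collagen and elastin. Every group had been transfected, so no untransfected cells entered a comparison, and neither strain, sex nor the number of animals was given in the labels. Nothing in them said that the 4 arrays of a group came from separate cultures, so p-values measure the spread between these arrays, which may be technical. The title of the series names exogenous expression, but every sample label names an siRNA.

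YAP and its paralogue TAZ carry mechanical information to the nucleus. On a stiff matrix or in a spread cell they enter the nucleus and switch on genes through TEAD factors, while the Hippo kinases, among them LATS2, phosphorylate them and hold them in the cytoplasm. In lung fibroblasts they are known for driving matrix-producing programs. Because lysyl oxidases stiffen the matrix, the RNA level of YAP targets after their loss is of interest. The design allows siLox and scr, which shared a slide, to be compared, although each group filled its own row of the slide. The same holds for siLoxl1 and siLoxl2, so within a slide siRNA and row cannot be told apart. For siLoxl1 and siLoxl2 the scr arrays lay on another slide, so siRNA and slide cannot be told apart.

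TEAD factors recognise the letters GGAATG, read on either strand (CATTCC on the other). RefSeq promoter windows of assembly GRCm38.p6, from 250 bases before to 50 after a transcription start, were listed for 6 of the 8 genes, with 2 windows for Lats2. All 6 had at least 1 match, in a set where 16.6% of 27025 genes (14.7% of 32851 windows) had one. Among other YAP and TAZ targets 2 of 10 genes with a window had the letters, and among Hippo pathway regulators 6 of 18. The 250 bases before the start are printed 5′ to 3′ on the gene's strand for Yap1, called in siLox against scr, for Amotl2, the gene furthest from scr on the other slide, and for Cyr61 and Ankrd1, targets that gave no call within a slide. Capitals mark the TEAD letters:
Yap1 chr9:8004597-8004846, minus strand: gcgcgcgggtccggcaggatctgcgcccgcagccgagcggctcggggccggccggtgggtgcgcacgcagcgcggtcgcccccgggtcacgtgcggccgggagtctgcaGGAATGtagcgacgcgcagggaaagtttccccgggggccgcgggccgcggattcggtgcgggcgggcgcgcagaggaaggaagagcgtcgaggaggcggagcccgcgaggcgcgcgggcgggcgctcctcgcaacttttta
Amotl2 chr9:102717554-102717803, plus strand: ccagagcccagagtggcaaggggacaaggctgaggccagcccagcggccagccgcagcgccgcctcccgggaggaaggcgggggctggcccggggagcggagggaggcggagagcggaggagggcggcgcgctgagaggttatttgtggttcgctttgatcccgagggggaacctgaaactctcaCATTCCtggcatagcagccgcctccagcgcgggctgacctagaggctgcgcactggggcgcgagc
Cyr61 chr3:145649986-145650235, minus strand: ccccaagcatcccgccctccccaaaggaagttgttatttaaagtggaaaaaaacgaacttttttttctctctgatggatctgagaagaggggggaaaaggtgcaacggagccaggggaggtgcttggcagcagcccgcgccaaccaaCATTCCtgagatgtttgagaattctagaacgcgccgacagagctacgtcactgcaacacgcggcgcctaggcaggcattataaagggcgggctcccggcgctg
Ankrd1 chr19:36119845-36120094, minus strand: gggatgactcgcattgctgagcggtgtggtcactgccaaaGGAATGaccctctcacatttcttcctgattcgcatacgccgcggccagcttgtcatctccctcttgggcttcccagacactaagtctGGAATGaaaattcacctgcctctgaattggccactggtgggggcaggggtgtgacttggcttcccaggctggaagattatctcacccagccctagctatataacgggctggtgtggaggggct
Counted from the start, the letters lay at −141 to −136 in Yap1, −65 to −60 in Amotl2 and −103 to −98 in Cyr61, and at −210 to −205 and −123 to −118 in Ankrd1. Axl had them at −233 to −228, and Lats2 at 4 to 9, after the start, in 1 of its 2 windows. In Amotl2 and Cyr61 they were on the other strand. The AP-1 letters TGANTCA, in 8.97% of genes, and the CArG box of serum response factor, in 1.81%, had no match in any of the 6. A match is a stretch of letters and not a measured binding site.

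**Figure D1:**
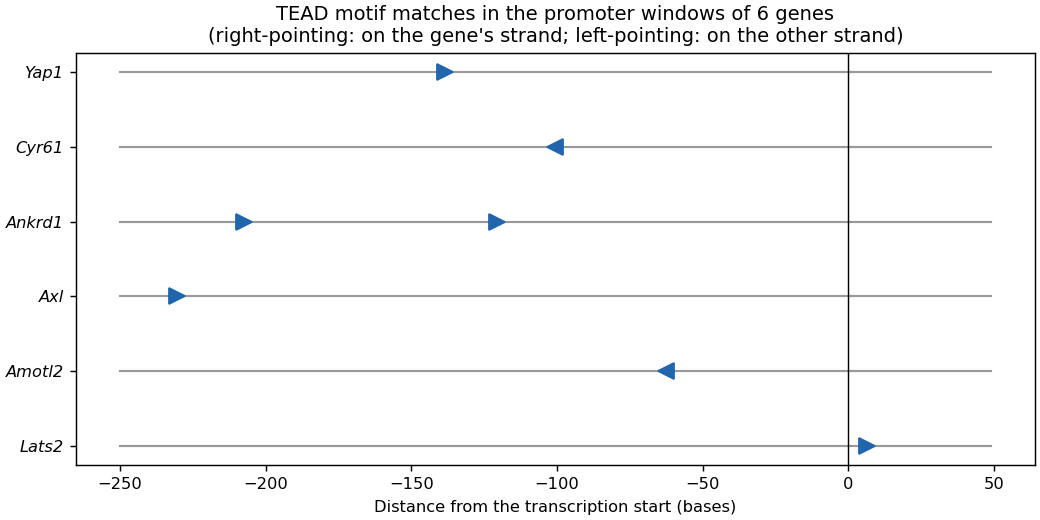
Positions of the TEAD letters in the promoter windows of the 6 genes that had one, in bases from the transcription start, with arrows for the strand. The matches of Yap1, Amotl2, Cyr61, Ankrd1 and Axl lie before the start, and that of Lats2 begins 4 bases after it.

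The arrays lay on 2 slides, per the file headers: siLox and scr shared slide 1, and siLoxl1 and siLoxl2 shared slide 2, which was read in another scan on another scanner. All scr and siLoxl1 arrays lay in row 1 of their slide, and all siLox and siLoxl2 arrays in row 2. Between 49.2 and 52.3% of the non-control spots were well above background on slide 1 and between 60.4 and 63.1% on slide 2, and 0 spots were saturated. Arrays separated by slide along the main axis of variance (70.7% of it). Each level below is a log2 signal from which the 75th percentile of its array was subtracted. Each targeted gene was lower where its siRNA was used: Lox lay between 0.39 and 2.04 in siLox and between 3.88 and 4.16 in scr, Loxl1 between 4.54 and 4.72 in siLoxl1 and between 5.65 and 5.80 in siLoxl2, and Loxl2 between 5.59 and 5.81 in siLoxl1 and between 5.25 and 5.58 in siLoxl2, although the last difference did not pass (+0.30, limma adjusted p = 0.0551). The other lysyl oxidases moved too: in siLox, Loxl1 (−0.49) and Loxl2 (−0.71) were also called lower than in scr (limma adjusted p = 0.0347 and 0.0248), and against scr on the other slide Loxl2 was at −0.76 in siLoxl1, with Lox at +0.68 in siLoxl1 and +0.83 in siLoxl2. Against those scr arrays the targets themselves were called lower, Loxl1 in siLoxl1 and Loxl2 in siLoxl2, with siRNA and slide not told apart. All 8 fibroblast markers were above background on every array, while the epithelial markers Epcam, Cdh1, Sftpc and Nkx2-1, 4 of 6 on their list, were well above background on none. The other 2, Krt8 and Scgb1a1, were above background on all arrays, with Krt8 at 1.23 in siLox and 0.96 in scr and Scgb1a1 at −4.40 in siLox and −4.16 in scr.

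A gene is called where limma's p, adjusted by Benjamini and Hochberg over all 22652 genes, is under 0.05. In siLox against scr 2 of the 8 genes were called, both lower, Yap1 and Ctgf, while 25% of all genes were called (11.5% higher and 13.5% lower). The same 2 genes had groups that did not overlap, as 30.6% of all genes did, and 2 of the 11 probes were called, against 21.1% of all probes. These shares lie close to the background.

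In siLoxl1 against siLoxl2 limma called 0 of the 8 genes, and 0 had an unadjusted p under 0.05, where 8.8% of all genes were called (6.11% higher and 2.7% lower). In 0 of the 8 were the groups free of overlap, against 20.3% of all genes. Of the 11 probes 0 were called and 0 had groups without overlap, against 6.72% and 19% of all probes.

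Against scr on the other slide, 6 genes were called higher and 1, Amotl2, lower in siLoxl1, where 65.1% of all genes were called (43.2% higher and 21.9% lower). The count was the same in siLoxl2, where 64.8% of all genes were called (41.4% higher and 23.4% lower). Groups did not overlap for 5 higher genes and 1 lower gene in siLoxl1 and for 4 and 1 in siLoxl2, against 58.2% and 57.3% of all genes. At probe level 9 of 11 were called in siLoxl1 and 10 of 11 in siLoxl2, where 62.4% and 62.3% of all probes were called and 55.6% and 54.9% had groups without overlap.

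**Figure D2:**
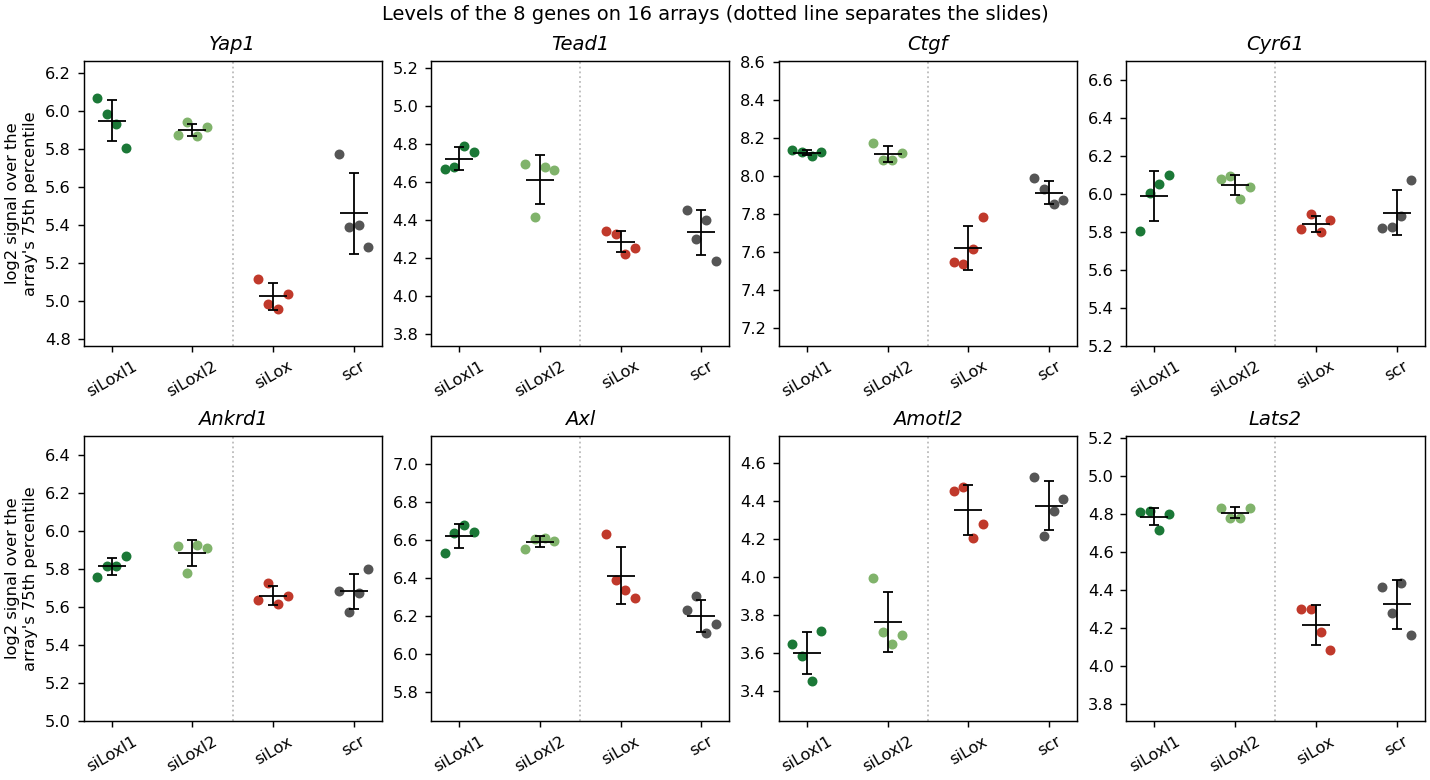
Level of each gene (log2 signal over the array's 75th percentile) on every array, with siLoxl1 and siLoxl2 of slide 2 left of the dotted line and siLox and scr of slide 1 right of it. Points are arrays and bars are the mean ± SD of 4 arrays. Yap1 and Ctgf of siLox lie below all scr arrays, and Amotl2 lies lower on all 8 slide 2 arrays than on slide 1.

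Yap1 encodes YAP itself. Its probe (A_55_P1953459, chr9:7932025-7932084, minus strand, mm9) read 5.11, 4.98, 4.96 and 5.03 on the siLox arrays, against 5.77, 5.39, 5.40 and 5.28 on the scr arrays. Every siLox array lay below every scr array, and scr array 1 stood highest of its group. The siLox mean was 5.02 ± 0.07 and the scr mean 5.46 ± 0.21 (SD, n = 4 each). Yap1 fell by 0.44 ± 0.11 (SE) on the log2 scale in siLox cells, to 73.8% of the scr level (95% interval −0.69 to −0.19, limma adjusted p = 0.0278, exact permutation p = 0.0286, two-sided and the smallest that 4 against 4 arrays can give). Its change lay at the 12.8th percentile of those of all genes. In bulk RNA, fewer cells of a type and less RNA per cell cannot be told apart. The call was lost on leaving out siLox array 1, 2 or 3 or scr array 2 or 3, with changes of −0.47, −0.43, −0.42, −0.46 and −0.46 and adjusted p between 0.0554 and 0.0750, and it was kept on leaving out any of the other 3.

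On slide 2, Yap1 read 6.06, 5.98, 5.93 and 5.81 in siLoxl1 and 5.87, 5.94, 5.87 and 5.91 in siLoxl2. These groups overlapped, and their difference was 0.05 (95% interval −0.09 to 0.18, limma adjusted p = 0.632). All 8 values stood above those of slide 1.

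Tead1 encodes a TEAD factor through which YAP binds DNA. Its brightest probe (A_51_P214423, chr7:120049844-120049903, plus strand, mm9) read 4.34, 4.33, 4.22 and 4.25 in siLox and 4.45, 4.30, 4.40 and 4.18 in scr. The groups overlapped, with a difference of −0.05 (95% interval −0.22 to 0.12, limma adjusted p = 0.656). The other probes of the gene did not move alike. A_55_P2011390 read 0.16, −0.07, −0.12 and −0.09 in siLox and −0.37, −0.25, −0.33 and −0.21 in scr. All its siLox values were higher, by +0.26 ± 0.08 (SE), where 28.7% of all probes had groups that did not overlap, and it missed the threshold in the fit across 32438 probes (limma adjusted p = 0.0578). It passed with all 16 arrays in the fit (adjusted p = 0.0110) and with array weights (0.0287). It did not pass with quantile normalization (0.0639), a replicate block (0.172) or normexp background correction (+0.12, 0.257). The third, A_55_P2159885, differed by 0.01 (limma adjusted p = 0.945).

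On slide 2 the brightest Tead1 probe read 4.67, 4.68, 4.79 and 4.76 in siLoxl1 and 4.69, 4.42, 4.68 and 4.66 in siLoxl2. One siLoxl2 array, number 2, stood apart below the other 3, and the difference of 0.11 did not pass (95% interval −0.05 to 0.27, limma adjusted p = 0.342).

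Ctgf encodes connective tissue growth factor, a matricellular protein and one of the most used readouts of YAP. Its probe (A_51_P157042, chr10:24318281-24318340, plus strand, mm9) read 7.55, 7.54, 7.62 and 7.79 in siLox and 7.99, 7.93, 7.86 and 7.87 in scr. The groups did not overlap, though siLox array 4 came within 0.07 of the lowest scr array. The siLox mean was 7.62 ± 0.12 and the scr mean 7.91 ± 0.06 (SD, n = 4 each). Ctgf fell by 0.29 ± 0.07 (SE), to 81.8% of the scr level (95% interval −0.46 to −0.12, limma adjusted p = 0.0290, exact permutation p = 0.0286). The call was lost on leaving out any of siLox arrays 1, 2 and 3 (−0.27, −0.26 and −0.29) or scr arrays 1, 2 and 3 (−0.26, −0.28 and −0.31), with adjusted p between 0.0623 and 0.0814. With quantile normalization the fall was 0.16 (−0.16, adjusted p = 0.116).

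On slide 2, Ctgf was nearly level: 8.14, 8.13, 8.11 and 8.13 in siLoxl1 and 8.18, 8.08, 8.09 and 8.12 in siLoxl2. The difference was 0.01, with a 95% interval of −0.08 to 0.09 (limma adjusted p = 0.906).

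The other target genes gave no call within either slide. Cyr61, a second matricellular CCN protein and early YAP target (A_51_P252859, chr3:145310187-145310246, minus strand, mm9), read 5.82, 5.89, 5.80 and 5.86 in siLox and 5.82, 5.82, 5.88 and 6.07 in scr. It read 5.80, 6.01, 6.05 and 6.10 in siLoxl1 and 6.08, 6.09, 5.97 and 6.04 in siLoxl2. Both pairs of groups overlapped, with differences of −0.06 (95% interval −0.23 to 0.11, limma adjusted p = 0.570) and −0.06 (−0.21 to 0.10, adjusted p = 0.639). Ankrd1, an ankyrin repeat protein that shuttles between sarcomere and nucleus in muscle (A_52_P120803, chr19:36186809-36186868, minus strand, mm9), read 5.64, 5.73, 5.61 and 5.66 in siLox and 5.68, 5.57, 5.67 and 5.80 in scr. It read 5.75, 5.81, 5.81 and 5.87 in siLoxl1 and 5.92, 5.78, 5.92 and 5.91 in siLoxl2. Both pairs overlapped here too, with differences of −0.02 (95% interval −0.17 to 0.13, limma adjusted p = 0.816) and −0.07 (−0.18 to 0.04, adjusted p = 0.375).

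Axl encodes a receptor tyrosine kinase for the ligand Gas6. Its probe (A_55_P2051414, chr7:26542541-26542600, minus strand, mm9) read 6.63, 6.39, 6.34 and 6.30 in siLox and 6.23, 6.31, 6.11 and 6.16 in scr. The lowest siLox array fell just under the highest scr array, and siLox array 1 was the highest. Unlike Yap1 and Ctgf, the estimate was positive, +0.21 ± 0.09 (SE), and it missed the threshold (95% interval 0.01 to 0.42, limma adjusted p = 0.111, exact permutation p = 0.0571). It passed with normexp background correction (adjusted p = 0.0420) and with all 16 arrays in the fit (0.0231). On slide 2 the values were 6.53, 6.64, 6.68 and 6.64 in siLoxl1 and 6.55, 6.61, 6.61 and 6.60 in siLoxl2, a difference of 0.03 (95% interval −0.07 to 0.13, limma adjusted p = 0.680).

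Amotl2 and Lats2 are targets that feed back on YAP: AMOTL2 is an angiomotin that binds YAP at junctions and actin, and LATS2 is a kinase that phosphorylates YAP. The Amotl2 probe (A_51_P348804, chr9:102635025-102635084, plus strand, mm9) read 4.45, 4.48, 4.21 and 4.28 in siLox and 4.53, 4.22, 4.35 and 4.41 in scr. It read 3.65, 3.58, 3.45 and 3.71 in siLoxl1 and 3.99, 3.71, 3.65 and 3.70 in siLoxl2. Both pairs overlapped. The siLox difference was −0.02 (95% interval −0.24 to 0.19, limma adjusted p = 0.874), and that of siLoxl1 against siLoxl2 was −0.16 (95% interval −0.37 to 0.04, adjusted p = 0.279). Without siLoxl2 array 1, the highest of its group, it was −0.08.

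The brighter Lats2 probe (A_52_P315345, chr14:58308807-58308866, minus strand, mm9) read 4.30, 4.30, 4.18 and 4.08 in siLox and 4.42, 4.28, 4.43 and 4.16 in scr. It read 4.81, 4.81, 4.72 and 4.80 in siLoxl1 and 4.83, 4.78, 4.78 and 4.83 in siLoxl2. Neither pair separated, with differences of −0.11 (95% interval −0.31 to 0.09, limma adjusted p = 0.371) and −0.02 (−0.11 to 0.07, adjusted p = 0.762). The second probe, A_55_P2002351 (chr14:58341225-58341284), gave +0.21 in siLox, opposite in sign to the first, and likewise did not pass (limma adjusted p = 0.171 in the fit across probes).

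**Figure D3:**
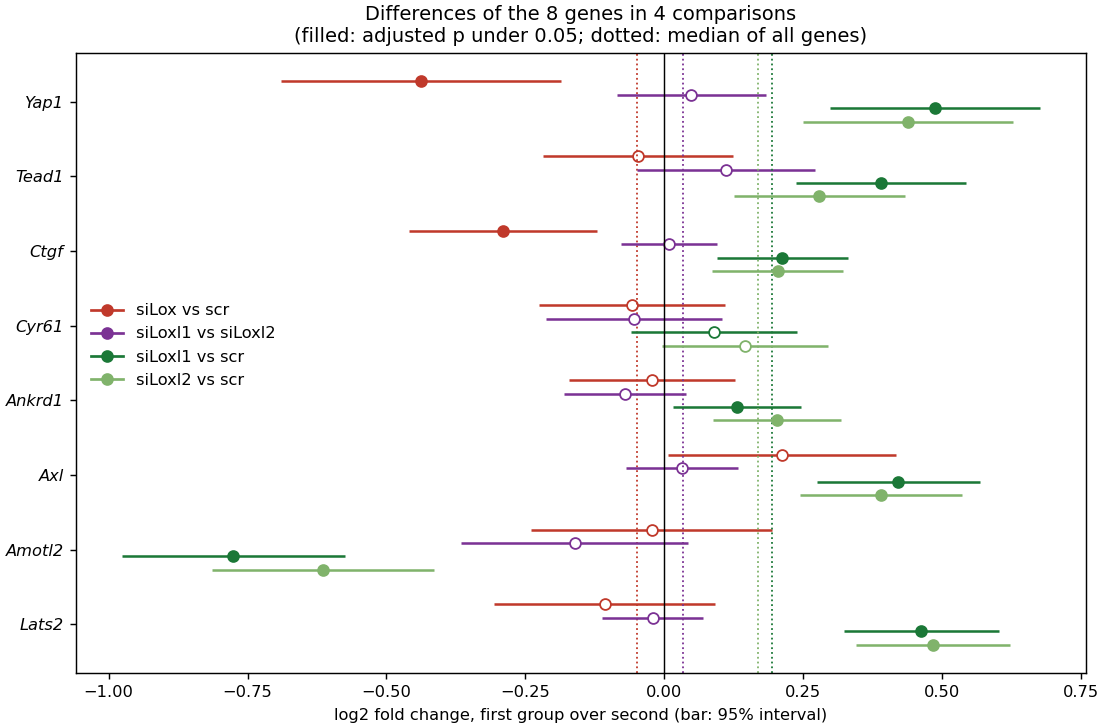
Log2 fold change of the first group over the second for the 8 genes in each comparison, with 95% intervals from limma. Filled points passed an adjusted p of 0.05, and dotted lines mark the median of all genes in the same colour. Yap1 and Ctgf are the filled points of siLox against scr, no point of siLoxl1 against siLoxl2 is filled, and Amotl2 is the gene lower than scr in siLoxl1 and siLoxl2.

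The median change of the 8 genes was −0.05 in siLox against scr, as it was over all genes (−0.05), and −0.01 in siLoxl1 against siLoxl2, where it was 0.03 over all genes. The intervals of the 8 genes in siLoxl1 against siLoxl2 reached no further than −0.37 and 0.27. Within groups the median SD of the 8 genes was 0.09 in siLox, 0.06 in siLoxl1, 0.05 in siLoxl2 and 0.12 in scr, against 0.13, 0.09, 0.09 and 0.17 over all genes. These SDs were not compared at matched signal. The 8 genes were well above background on every array, which detection did not require of all genes.

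Genes of the same pathway, taken from lists that were put together with earlier results of these data known, were called in both directions in siLox cells. With 3 of 16 other targets and 5 of 23 Hippo genes called, where 25% of all genes were, neither list stood above the background. Of 16 other YAP and TAZ targets, Gadd45a, a stress-induced growth arrest gene, was higher (+0.84 ± 0.16, SE), Tgfb2, a TGF-β ligand, was lower (−0.59 ± 0.11), as was Arhgef17 (−0.47 ± 0.07), and 13 did not pass. The list median was −0.08. Each of the 3 kept its call on leaving out any array. Of 23 Hippo kinases, scaffolds and upstream regulators 1 was higher and 4 were lower. Amotl1, an angiomotin, was higher (+0.62 ± 0.12). The atypical cadherin Fat4 was lower (−0.76 ± 0.14), as were Mob1a, an activator of LATS kinases (−0.49 ± 0.07), the kinase Taok3 (−0.42 ± 0.08) and the angiomotin Amot (−0.29 ± 0.08). The call of Amotl1 was lost without scr array 3 (+0.59, limma adjusted p = 0.0513), and that of Amot without any siLox array or scr array 1 or 3 (adjusted p from 0.0694 to 0.109).

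Among 7 YAP partners and TEAD co-factors, Wwtr1, which encodes TAZ, was lower in siLox (−0.79 ± 0.13, SE, limma adjusted p = 0.0110), and every siLox array lay below every scr array. Tead4 was higher (+0.47 ± 0.08), as was Vgll4 (+0.25 ± 0.07), whose product competes with YAP for TEAD. Vgll4 lost its call without any array other than scr array 4 (adjusted p from 0.0812 to 0.117), whereas Wwtr1 and Tead4 kept theirs on leaving out any array. RNAs of both paralogues, Yap1 and Wwtr1, were called lower in siLox than in scr, where 25% of all genes were called. Unlike that of Wwtr1, the Yap1 call was lost on leaving out any of 5 single arrays.

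Relatives of the target genes were also tested in siLox cells, where 25% of all genes were called. Of 3 further CCN genes detected, Wisp1 (−0.72 ± 0.17, SE) and Wisp2 (−0.78 ± 0.19) were lower, and Nov, at a low signal, did not pass. The other TAM receptors, the family of Axl, and their ligands were all lower: the receptors Mertk (−0.46 ± 0.09) and Tyro3 (−0.25 ± 0.06) and the ligands Gas6 (−0.50 ± 0.14) and Pros1 (−0.76 ± 0.20). Thus 4 of 4 passed, on a short list chosen with earlier results of these data known, with overlapping groups for Gas6 and Pros1. Axl had a positive estimate that did not pass. Of 4 muscle ankyrin repeat genes and Ankrd1 partners, Myh9, a non-muscle myosin heavy chain, was lower (−0.33 ± 0.09) and Des, desmin, was higher (+0.29 ± 0.07). Mertk kept its call on leaving out any array. Wisp1, Gas6, Pros1, Tyro3 and Myh9 lost theirs on leaving out any one of siLox arrays 1, 2 and 3 or scr arrays 1, 2 and 3, with limma adjusted p from 0.0505 to 0.0939. Wisp2 lost its call without siLox array 2 or 3 or scr array 1, 2 or 3 (0.0576 to 0.0692), and Des without siLox array 1, 2 or 3 or scr array 2 or 3 (0.0566 to 0.0754).

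Cell type markers were read from the same siLox and scr arrays, where 25% of all genes were called. The 8 fibroblast markers, summed on the linear scale relative to the 75th percentile, came to between 551.1 and 773.9 in siLox and between 831.5 and 907.3 in scr. Of the 8, 3 (Col1a2, Thy1 and Vim) were called lower and 5 did not pass. All 8 leukocyte and macrophage markers were above background on every array and summed to between 23.1 and 27.4 in siLox and between 22.5 and 25.5 in scr, with 1 of 8 higher. The 5 mesothelial markers summed to between 12.7 and 14.2 in siLox and 12.4 and 13.5 in scr (1 higher, 3 lower), and the 5 endothelial markers to between 3.13 and 4.89 in siLox and 4.59 and 5.49 in scr (0 called). The epithelial sum did not overlap, at 2.32 to 2.54 in siLox and 1.83 to 2.25 in scr, with 1 of the 2 detected members, Krt8, called higher (+0.27, limma adjusted p = 0.0485). Smooth muscle and pericyte markers summed to between 187.7 and 251.1 in siLox and 225.2 and 264.4 in scr, with 1 of 5 higher and 2 lower. The part of any of these in the changes of Yap1, Ctgf and the lists was not tested.

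**Figure D4:**
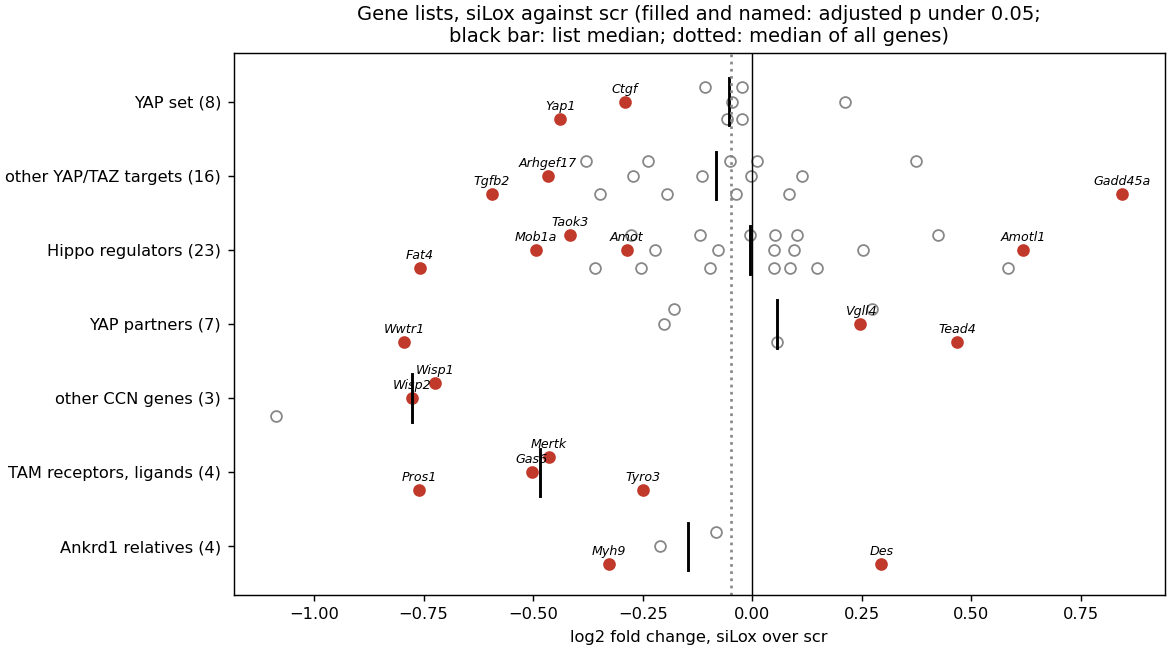
Log2 fold change of siLox over scr for the 8 genes and for the genes of 6 related lists, with filled, named points for an adjusted p under 0.05 and bars for list medians. Wwtr1, the CCN genes Wisp1 and Wisp2 and all 4 TAM genes lie left of 0, and Gadd45a is the rightmost point.

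In siLoxl1 against siLoxl2, where 8.8% of all genes were called, 2 of the 16 other targets and 3 of the 23 Hippo genes were called. Of the targets the transcription factor gene Foxf2 was higher in siLoxl1 (+0.37 ± 0.05, SE) and Tgfb2 lower (−0.29 ± 0.05). Of the 23 Hippo genes 3 were higher, Mob1b (+0.35 ± 0.06), Stk3, a Hippo kinase (+0.27 ± 0.06), and Amot (+0.27 ± 0.05), and 0 lower. Wisp2 (−0.20 ± 0.05) and Ankrd23, an ankyrin repeat gene (−0.21 ± 0.05), were lower. Foxf2, Tgfb2 and Mob1b kept their calls on leaving out any array. Stk3 kept its call only without siLoxl1 array 4 (limma adjusted p from 0.0533 to 0.0959 without any other), Amot lost it without siLoxl1 array 2 or siLoxl2 array 3 or 4 (0.0507 to 0.0558), and Wisp2 and Ankrd23 lost theirs without any array (0.0503 to 0.112). None of the 7 partners or 4 TAM genes passed limma's test. The smallest adjusted p among the partners was that of Tead2 (+0.16 ± 0.06, limma adjusted p = 0.111), and Wwtr1, the gene of TAZ, gave +0.17 ± 0.07 (0.170).

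Comparisons of siLoxl1 and siLoxl2 with scr cross the slides, so siRNA and slide cannot be told apart, and both share the 4 scr arrays with each other and with the siLox comparison. The median gene was itself 0.19 higher in siLoxl1 and 0.17 higher in siLoxl2 than in scr, and the changes are also given relative to that shift. With 75th percentile scaling 9794 genes were called higher and 4953 lower in siLoxl1, against 7822 and 6263 with quantile normalization and 8294 and 9874 with normexp correction. Of the 8 genes Amotl2 departed furthest from the median gene. Its mean was 3.60 ± 0.11 in siLoxl1, 3.76 ± 0.16 in siLoxl2 and 4.38 ± 0.13 in scr (SD, n = 4 each). The change of Amotl2 was −0.78 ± 0.09 (SE) in siLoxl1, 58.4% of scr, and −0.61 ± 0.09 in siLoxl2, 65.3% of scr (limma adjusted p = 4.75e-06 and 4.833e-05). Relative to the median gene it was −0.97 and −0.78, and its changes lay at the 8th and 11th percentiles of all genes.

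Lats2 differed the other way, with 4.78 ± 0.05 in siLoxl1, 4.81 ± 0.03 in siLoxl2 and 4.32 ± 0.13 in scr, or +0.46 ± 0.06 and +0.48 ± 0.06 (SE, limma adjusted p = 2.185e-05 and 1.526e-05). Its second probe gave +0.51 and +0.54. Yap1 gave +0.49 and +0.44, Axl +0.42 and +0.39, Tead1 +0.39 and +0.28, Ctgf +0.21 and +0.20 and Ankrd1 +0.13 and +0.20, all called, in siLoxl1 and siLoxl2. Cyr61, at +0.09 and +0.14, was not. Against the median gene, Yap1 stood +0.29 and +0.27 higher, while Ctgf (+0.02 and +0.04), Ankrd1 (−0.06 and +0.03) and Cyr61 (−0.10 and −0.02) stood near it. Of the other Tead1 probes, A_55_P2011390 went with the brightest, at +0.43 and +0.39 (limma adjusted p = 0.00012 and 0.0002458). The third Tead1 probe went against the brightest, at −0.16 and −0.20, with the siLoxl1 call lost without siLoxl1 array 1, 2 or 4 or scr array 1, 2 or 4 (adjusted p 0.0549 to 0.135).

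Most of these calls changed with the scaling. With quantile normalization Amotl2 was −0.98 in siLoxl1 and −0.77 in siLoxl2, Lats2 was +0.21 and +0.30, and both genes stayed called in both comparisons. Yap1 (+0.19 and +0.19), Axl (+0.09 and +0.12) and Tead1, read from its brightest probe (+0.14 and +0.09), lost their calls. Tead1 probe A_55_P2011390 stayed called higher (+0.415 and +0.391), and A_55_P2159885 stayed called lower (−0.19 and −0.24). Ctgf was at −0.01, turned round, in siLoxl1 and at +0.01 in siLoxl2. Cyr61 (−0.22 in siLoxl1, −0.11 in siLoxl2) and Ankrd1 (−0.16 and −0.04) turned round, and in siLoxl1 both were then called lower (limma adjusted p = 0.0125 and 0.0331). The Ankrd1 call in siLoxl1 was also lost without siLoxl1 array 2, 3 or 4 or scr array 1, 2 or 3 (+0.09 to +0.13, adjusted p 0.0642 to 0.141), and that of Cyr61 was gained in siLoxl1 without siLoxl1 array 1 (+0.15, 0.0499) and in siLoxl2 without scr array 4 (+0.20, 0.0140). Cyr61 was also called higher with normexp correction in siLoxl1 (+0.23, limma adjusted p = 0.00478), so its called direction depended on the processing. In siLoxl2 it was called higher with normexp correction and with array weights.

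**Figure D5:**
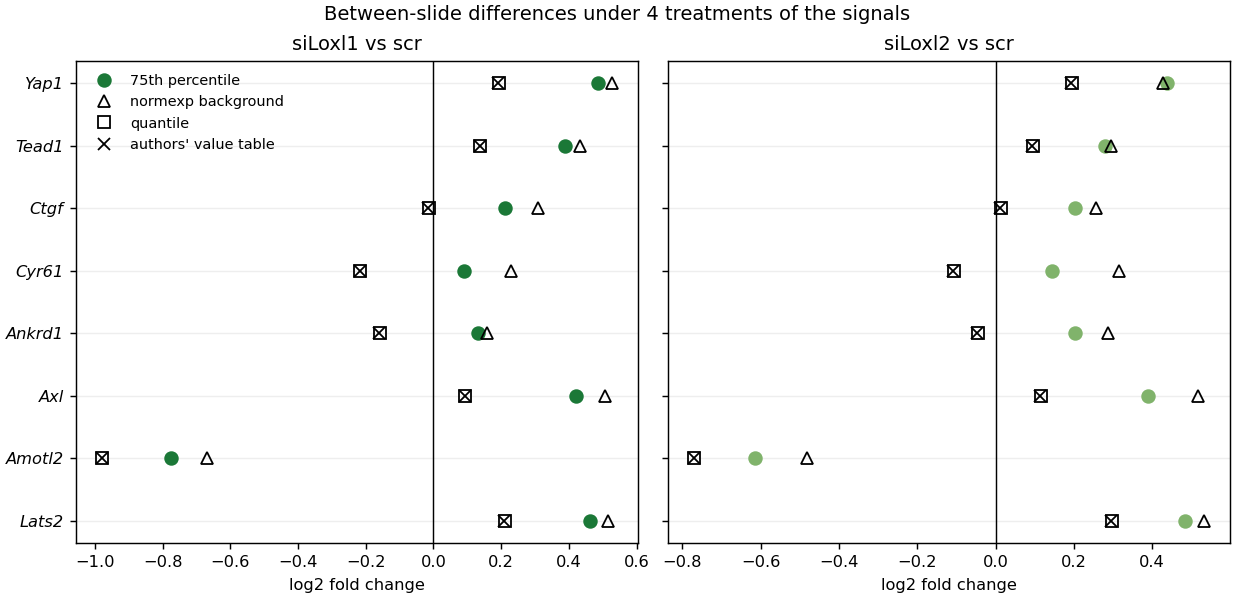
Log2 fold change of each gene in siLoxl1 (left) and siLoxl2 (right) against scr under 4 treatments of the signals. Quantile normalization and the authors' value table shift every gene to the left, past 0 for Cyr61 and Ankrd1 and, in siLoxl1, just past 0 for Ctgf, while Amotl2 stays left of 0 and Lats2 right of 0 throughout.

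Genes of these lists were called between slides as well, where 65.1% of all genes were called in siLoxl1 and 64.8% in siLoxl2, and nothing is read from their counts. Of the other targets 6 were higher and 5 lower in siLoxl1 and 5 and 5 in siLoxl2, with Tgfb2 at −3.15 and −2.86, Fjx1, a Golgi kinase gene, at −1.91 and −1.95, the kinase gene Nuak2 at −1.48 and −1.49, and F3, tissue factor, at +0.89 and +0.86. Of the Hippo genes 14 and 12 were higher and 6 and 7 lower, with Amot at +1.71 and +1.44 and Ajuba, a LIM protein that inhibits LATS, at −1.22 and −1.08. Among partners Wwtr1 was at −0.22, which did not pass, and −0.39, which did, and Vgll4 at −0.85 and −0.91. Vgll2, not well above background on any scr array, had means of −3.73 in siLoxl1, −3.79 in siLoxl2 and −6.34 in scr. With normexp correction its changes were −0.04 and −0.05, so no size of difference is given for it. Wisp2 was lower (−1.12 and −0.92), Pros1 (+2.30 and +2.32) and Tyro3 (+0.81 and +0.70) were higher, Myh9 was higher (+0.44 and +0.39) and Des lower (−1.06 and −0.85).

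Marker levels also differed between the slides, where 65.1% of all genes were called in siLoxl1 and 64.8% in siLoxl2. Mesothelial markers summed to between 20.6 and 22.4 in siLoxl1, 20.5 and 23.3 in siLoxl2, and 12.4 and 13.5 in scr, all 5 above background on every array. In each comparison 2 of 5, Krt19 and Msln, were higher and 3, Wt1, Upk3b and Lrrn4, were lower. Krt19 had means of 4.01 in siLoxl1, 4.07 in siLoxl2 and 1.68 in scr, and Wt1 of 0.07, −0.18 and 2.45. Leukocyte and macrophage markers summed to between 30.9 and 33.3 in siLoxl1, 33.9 and 36.8 in siLoxl2, and 22.5 and 25.5 in scr. Of these 8 markers 2, Itgam and Cd68, were called higher in both groups, while Ptprc and Cd14 were called lower in siLoxl1 and Ptprc in siLoxl2. The fibroblast sum lay between 764 and 803.9 in siLoxl1, 723.8 and 776.4 in siLoxl2, and 831.5 and 907.3 in scr. The epithelial sum was at most 0.207 in siLoxl1 and 0.197 in siLoxl2 and at least 1.83 in scr. Of its 2 detected members Krt8 was called lower, with means of −3.28 in siLoxl1, −3.40 in siLoxl2 and 0.96 in scr, and Scgb1a1 was not called, with means of −4.29 in siLoxl1, −4.21 in siLoxl2 and −4.16 in scr. Their part in the between-slide differences was not tested.

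By the correlation of slide-centred levels over the 16 arrays, across 14653 named genes, each gene had its own nearest neighbours. The points share slides, RNA extracts and group differences, so the values describe these arrays only. Ctgf was most like Adam22 (r = 0.97), and Yap1 most like Cd151, Lamp2 and Prep (0.95 each). Axl was most like Ddi2 (0.93), Ccdc40 and Ptpn14 (0.89), a phosphatase gene that is itself on the list of other YAP and TAZ targets. Several of these values were high on slide 1 and lower on slide 2: 0.98 and 0.56 for Ctgf with Adam22, 0.99 and 0.42 for Yap1 with Cd151, 0.96 and 0.11 for Axl with Ccdc40, and 0.95 and 0.34 for Axl with Ptpn14. Yap1 with Prep (0.96 and 0.84) and Axl with Ddi2 (0.93 and 0.88) were high on both. Lats2 was nearest to Plekha7 (0.90), Tead1 to Lpcat1 (0.89), Amotl2 to Cul1 (0.86), Cyr61 to Lrriq3 (0.80) and Ankrd1 to Fbxw10 (0.78), and none of the 8 was among the 3 nearest neighbours of another.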

How the data were processed

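Gene expression was measured on one-colour Agilent arrays. Per the file headers, the deposited scanner intensity values were read with Agilent Feature Extraction 10.7.3.1, which subtracts and detrends the background within each array. A second deposited table gives log2 values for these arrays, and its columns share 1 distribution (sorted columns differed by at most 0.000965), as after quantile normalization, and it correlated with the log2 intensities at r of at least 0.999. Processed signals were taken to log2 minus the 75th percentile of each array's non-control probes. Outlier spots were dropped and spots of a probe averaged. Detection required 1 group or more in which each of the 4 arrays flagged the probe well above background (32486 probes, 58.3%). A gene was read from its brightest probe. The flags are other deposited columns of 0 or 1 per spot. Positions are those of the files (mm9). RefSeq accessions (GRCm38.p6, 28026 probes) updated gene names.

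limma 3.58.1 in R 4.3.3 tested siLox against scr and siLoxl1 against siLoxl2 on the 8 arrays of each pair, and the between-slide comparisons on all 16 arrays, with Benjamini-Hochberg adjustment over all genes. The code was tested on simulated data. The number of arrays limits the precision. Same-numbered arrays were not treated as pairs. The 8 genes and all lists were chosen with earlier results of these data known. From each list up to 5 called genes with the largest fold were eligible to be named, or 2 with the smallest p, and Wwtr1 always; the 8 genes were always reported, and the text names 1 to 3 of the 3 nearest neighbours of each. An item among these neighbours is not reported here. Alternatives were quantile normalization, normexp with an offset of 50, the value table, other probe filters, other arrays in the fit, a replicate block, array weights, the mean of a gene's probes and leaving out each array.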

Additional observations from a re-analysis of the deposited data

Results flagged for a closer look

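In 4 of the 44 groups of 4 arrays formed by the 11 probes, 1 array stood apart from the other 3 by Dixon's test, and chance flags about 1 in 20 groups. Ankrd1 read 5.78 on siLoxl2 array 2, where the other siLoxl2 arrays read 5.91 to 5.92. The brightest Tead1 probe read 4.42 on the same array, below 4.66 to 4.69, and the Tead1 probe A_55_P2159885 read −1.31 there, above −1.48 to −1.46. The brighter Lats2 probe read 4.72 on siLoxl1 array 3, below 4.80 to 4.81. Without siLoxl2 array 2 none of the 8 genes was called in siLoxl1 against siLoxl2, as with it.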

How the results depend on the processing

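Within slide 1 the calls were sensitive to the test. siLox against scr gave 5655 genes, 2969 with no filter on dim probes, 9748 with all 16 arrays in the fit, 9447 with array weights, and between 1831 (without scr array 3) and 7831 (without scr array 4) on leaving out 1 array. Of the 8 genes 2 were called, 1 with quantile normalization, 1 with the authors' value table, 0 with no filter and 0 to 2 on leaving out 1 array. Of the 11 probes 2 were called, 1 with quantile normalization, 1 with the value table, 0 with no filter, 4 with all 16 arrays and 0 to 3 on leaving out 1 array. siLoxl1 against siLoxl2 gave 1994 genes (1383 higher, 611 lower), 1507 with quantile normalization (845 and 662), 647 with no filter, 905 with all 16 arrays and 609 to 1409 on leaving out 1 array, and 0 of the 8 genes under every alternative run. Same-numbered arrays correlated at −0.12, −0.02, −0.00 and −0.19 for siLox and scr, and at 0.12, 0.22, 0.13 and 0.04 for siLoxl1 and siLoxl2. Since not every pair was over 0.1, the numbers were not taken as pairs, although on slide 2 the first 3 values exceeded every correlation with another number, a hint from the data and not the design. With a replicate block, 3 genes, 0 of the 8 genes and 0 of the 11 probes were called in siLox against scr, and 853 genes in siLoxl1 against siLoxl2.

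Between slides, siLoxl1 against scr called 7 of the 8 genes, 4 with quantile normalization and 4 with the value table (1 higher, 3 lower each). siLoxl2 against scr called 7 genes, 2 with either of these, and 10 probes, 5 with either. Normexp correction moved the counts the other way, to 8 genes (7 higher, 1 lower) and 11 probes (9 higher, 2 lower) in each comparison. It called 18168 of all genes in siLoxl1 and 17932 in siLoxl2. The all-gene split in siLoxl2 was 9371 higher and 5299 lower, against 7623 and 6529 with quantile normalization and 7907 and 10025 with normexp correction. With no filter it was 9802 and 12267 in siLoxl1 and 9376 and 12379 in siLoxl2. The cause of each change of sign was not tested. In siLox against scr, Ankrd1 was 0.0217 and Amotl2 9e-04 with quantile normalization, 0.0219 and 4e-04 with the value table. On leaving out 1 array, Ankrd1 ranged from −0.0591 to 0.0161, Amotl2 from −0.0757 to 0.0281 (0.0262 and 0.0027 without siLox array 3 and 4) and Tead1 probe A_55_P2159885 from −0.0268 to 0.0309 (−0.0101 without siLox array 3), which was −0.0139 with normexp. With the mean of a gene's probes Lats2 was 0.0535 and Tead1 0.0725. In siLoxl1 against siLoxl2, quantile normalization and the value table gave −0.0271 and −0.0266 for Ctgf, −0.021 and −0.021 for Axl, and −0.0019 and −0.0017 for Yap1, and normexp −0.0106 for Axl. On leaving out 1 array, Ctgf ranged from −0.0027 to 0.0284 (−0.0023 without siLoxl2 array 3), Cyr61 from −0.0915 to 0.0073, Lats2 from −0.0309 to 0.0013 and its probe A_55_P2002351 from −0.08 to 0.0326. Tead1 probe A_55_P2011390 ranged from −0.0117 to 0.0662 and A_55_P2159885 from −0.0067 to 0.088. In siLoxl1 against scr, quantile normalization and the value table gave −0.0143 and −0.0164 for Ctgf, −0.2157 and −0.2175 for Cyr61, and −0.1581 and −0.1605 for Ankrd1. In siLoxl2 against scr they gave −0.1067 and −0.1095 for Cyr61 and −0.0441 and −0.0466 for Ankrd1. Vgll2 was −0.0425 in siLoxl1 and −0.0479 in siLoxl2 with normexp. Over the alternatives for single genes and probes, 1770 values kept direction and side of the threshold, 198 lost a call, 16 gained one and 39 changed sign.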
